A study of Mus musculus with 8 samples.

Results

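The 10 genes described here are *Nfe2l2*, which encodes the transcription factor NRF2, *Keap1*, which encodes the protein that holds NRF2 in check, and 8 antioxidant genes known as NRF2 targets, *Nqo1*, *Hmox1*, *Gclc*, *Gclm*, *Txnrd1*, *Srxn1*, *Gpx2* and *Slc7a11*. They were chosen by name, by matching the Ensembl identifiers of the deposited count table to gene symbols in GENCODE release M21, and all 10 were found among the 48709 genes of the table. All 10 also passed the filter on low counts, which left 14929 genes for testing.

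RNA-sequencing data of 8 mouse lung tumors, split evenly between the genotypes *K-Ctrl* and *K-Setd2KO* (n = 4 each), were compared to ask how loss of *Setd2*, a histone methyltransferase gene, alters expression in this tumor model. Both groups arose in mice of mixed B6J/129S4vJae background after LentiCRISPRv2Cre was given by endotracheal intubation, so that Cre and the guide RNA reached the same lung cells. The vector carried a guide against *GFP* in *K-Ctrl* tumors and a guide against *Setd2* in *K-Setd2KO* tumors. The age of the mice at collection, and whether tumors of a group came from separate mice, are not given in the sources used here, so the p-values measure the spread between these samples. The design text speaks of flash-frozen tumors and the extraction text of cell lines. RNA came from whole samples that held other cells beside tumor cells, and fewer cells of a type and less RNA per cell cannot be told apart in such data.

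NRF2 is continuously bound by KEAP1, an adaptor of the CUL3 ubiquitin ligase, and is degraded. When reactive electrophiles or oxidants modify cysteines of KEAP1, NRF2 escapes, enters the nucleus, pairs with a small MAF protein and binds antioxidant response elements (AREs) near genes for glutathione synthesis, thioredoxin reduction, NADPH supply and detoxification. Mutations of *KEAP1* or *NFE2L2* that raise NRF2 activity are well known in human lung cancer. Because control of NRF2 acts largely on the protein, the mRNA of its targets is the usual readout in expression data.

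The letters of an ARE were looked for in the promoters of these genes, since members of the list are known as NRF2 targets. RefSeq windows on GRCm38.p6, running from 250 bases before to 50 bases after an annotated gene start, were searched on both strands for the ARE core TGACNNNGC. A window was found for 8 of the 10 genes, and *Hmox1* and *Gclc* had no entry. The core was present for 4 of these 8 genes, beside 3781 of the 27025 genes with a searched window (13.99%). Counted by window, it was in 4 of 10 windows of these genes, since *Txnrd1* has several starts, and in 4071 of the 32851 windows searched (12.4%). *Nqo1*, *Keap1*, *Gpx2* and *Slc7a11* did not have it in their windows. The 4 stretches are printed 5′ to 3′ on the strand of the gene, with the core in capitals. GC at the left end and TCA at the right end of the capitals mark a core on the opposite strand.
Gclm, chr3:122245403-122245451, plus strand: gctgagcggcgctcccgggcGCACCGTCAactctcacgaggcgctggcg
Txnrd1, chr10:82859094-82859142, plus strand: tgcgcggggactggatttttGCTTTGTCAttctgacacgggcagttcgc
Nfe2l2, chr2:75704875-75704913, minus strand: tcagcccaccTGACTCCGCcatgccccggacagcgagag
Srxn1, chr2:152105532-152105560, plus strand: gccacggcgggcagtgggcaGCTAGGTCA

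Relative to the gene start of the window, the first base of the core lies at -134 in *Gclm*, -92 in *Txnrd1* and -240 in *Nfe2l2*. In *Srxn1* it lies at 28, after the start. None of these 4 cores overlapped TGANTCA, the site of AP-1 factors, whose letters an ARE can contain. The *Srxn1* window, however, held 2 copies of TGANTCA upstream of the start, in capitals in the next stretch, a motif present in 2565 of the windows searched (7.81%).
Srxn1, chr2:152105402-152105505, plus strand: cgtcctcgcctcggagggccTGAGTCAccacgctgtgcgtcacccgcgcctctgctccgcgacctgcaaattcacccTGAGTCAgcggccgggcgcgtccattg
A match is a description of letters and not a measured binding site, and the absence of one says only that the letters are not in this window.

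Total counts ranged from 5806599 to 21290402 per tumor, and a limit of 3 counts corresponded to between 0.138 and 0.513 CPM (read counts scaled by TMM-adjusted library size). *Setd2* mRNA averaged 140 ± 8.81 CPM in control and 136 ± 15.5 CPM in *K-Setd2KO* tumors (SD, n = 4 each), a log2 fold change of -0.05 ± 0.12 (SE) with an adjusted p of 0.824, so transcript level did not separate the labels. A guide-directed break need not lower the mRNA. By sex-specific transcripts 1 *K-Ctrl* tumor and 3 *K-Setd2KO* tumors were female.

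Of the 10 genes, only *Hmox1* was called at an adjusted p under 0.05, and it was higher in *K-Setd2KO* tumors by 2.21-fold (edgeR quasi-likelihood test, adjusted p = 0.0104). Over all tested genes, 12.7% were called at an adjusted p of 0.05 in either direction, 4.97% higher and 7.74% lower. *Nfe2l2*, *Keap1* and the other 7 targets did not pass, and among them only *Keap1* had an unadjusted p under 0.05. Log2 fold changes were above 0 for 6 genes and below 0 for 4, with a median of 0.11 and a range of -1.58 to 1.14. The median over all tested genes was 0.03.

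**Figure D1:**
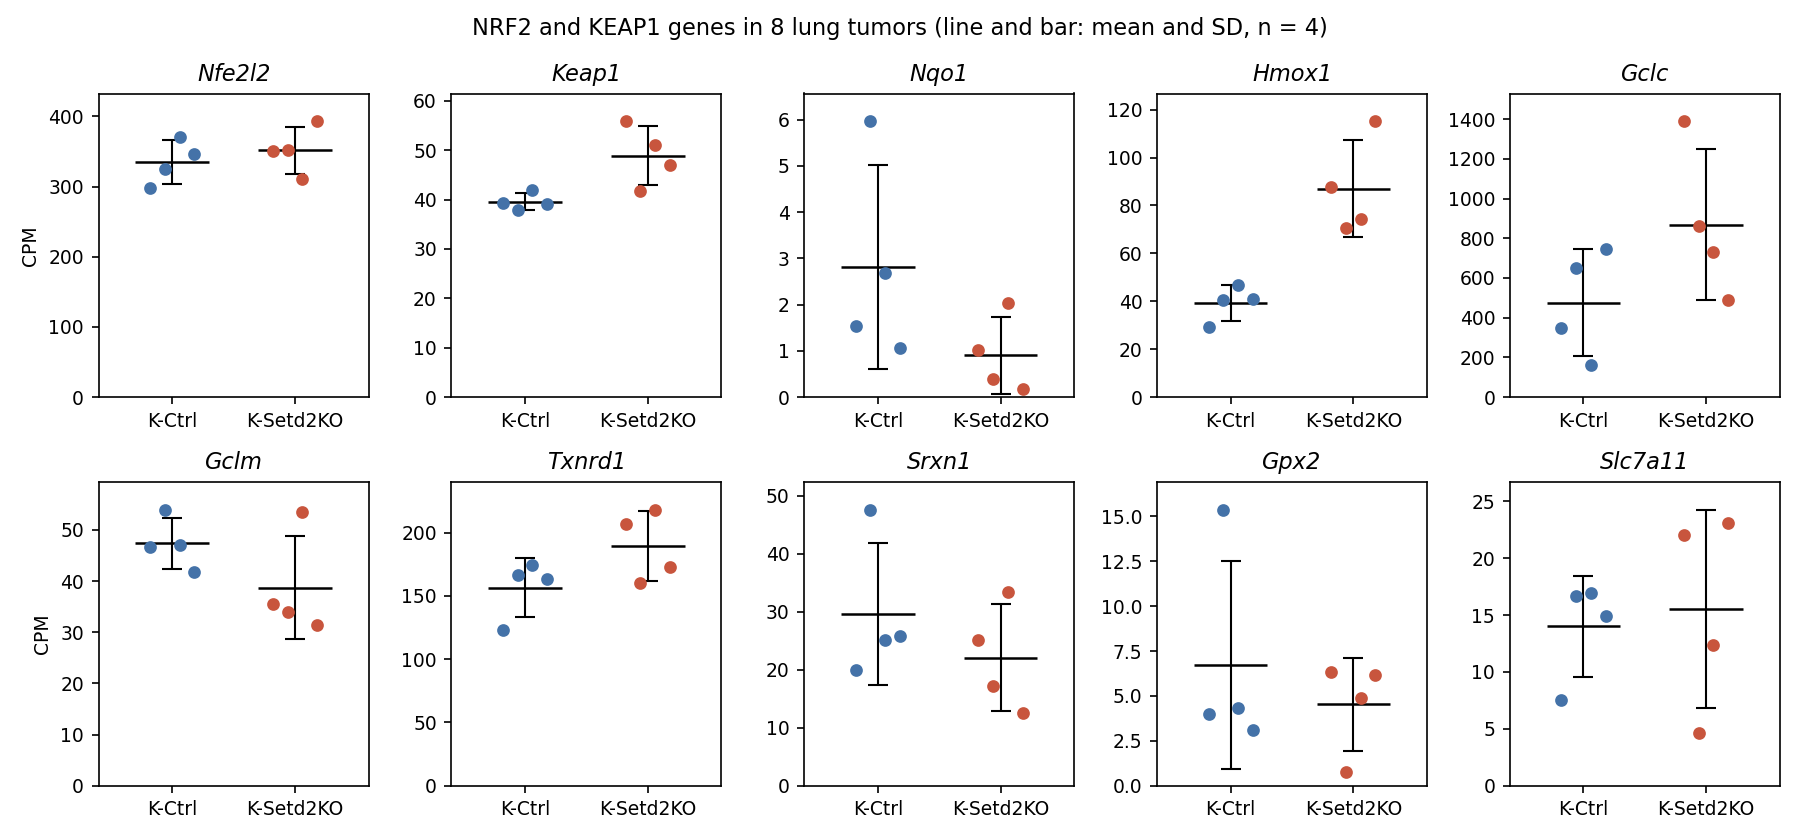
CPM on a linear axis from 0 for each of the 10 genes, with 1 point per tumor (blue, *K-Ctrl*, red, *K-Setd2KO*) and the mean and SD as line and bar. The points of the genotypes are apart only for *Hmox1*, whose *K-Ctrl* tumors lie between 29.2 and 46.9 CPM and whose *K-Setd2KO* tumors lie between 70.7 and 115 CPM.

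Beginning with the regulators, *Nfe2l2* (chr2:75675513-75704641, GRCm38) was measured at 298, 325, 371 and 347 CPM in *K-Ctrl* tumors 1 to 4 and at 351, 352, 311 and 393 CPM in *K-Setd2KO* tumors 1 to 4. The tumors of both genotypes were interleaved, and the highest and lowest values differed by only 1.24-fold within *K-Ctrl* and 1.26-fold within *K-Setd2KO*. The log2 fold change was 0.07 ± 0.12 (SE) with a 95% interval of -0.21 to 0.35 and an adjusted p of 0.747. It was among the least variable of the 10 transcripts, together with *Keap1*.

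*Keap1* (chr9:21229730-21239332) was measured at 39.3, 38.0, 42.0 and 39.1 CPM in *K-Ctrl* tumors and at 55.9, 41.8, 51.1 and 46.9 CPM in *K-Setd2KO* tumors. Control tumors were tightly grouped, and 3 of 4 *K-Setd2KO* tumors lay above all of them, with *K-Setd2KO* tumor 2 just inside the control range. The log2 fold change was 0.31 ± 0.12 with an unadjusted p of 0.0329 and an adjusted p of 0.131, which does not pass. Its 95% interval, 0.03 to 0.58, did not include 0. An antisense gene overlaps *Keap1*, and the strand setting of the counting is not given in the sources used here.

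*Hmox1* (chr8:75093621-75100589) encodes heme oxygenase 1, which opens the heme ring to give biliverdin, carbon monoxide and iron. It was measured at 29.2, 40.3, 46.9 and 40.8 CPM in *K-Ctrl* tumors and at 87.8, 70.7, 74.4 and 115 CPM in *K-Setd2KO* tumors. Every *K-Setd2KO* tumor exceeded every *K-Ctrl* tumor, a separation seen in 20.3% of tested genes. The log2 fold change was 1.14 ± 0.20 (95% interval 0.70 to 1.59), and the gene was called in all 16 alternative analyses, with log2 fold changes between 0.98 and 1.24. Among female tumors alone (1 *K-Ctrl*, 3 *K-Setd2KO*) the log2 difference was 1.13 and among male tumors alone (3 and 1) it was 0.94. Differences within sexes, here and below, are of mean log2(CPM + 1) and are not edgeR fold changes.

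*Hmox1* is strongly expressed by macrophages as well as by stressed epithelial cells, so the markers of other cells are given beside it. All 10 macrophage markers measured had log2 fold changes below 0 and 4 were called lower, including *Adgre1* and *Mrc1*. Their summed level ran from 446 to 840 CPM in controls and from 171 to 298 CPM in *K-Setd2KO* tumors. All 8 alveolar macrophage markers were likewise below 0, 4 of them called, with sums of 1948 to 5886 CPM against 391 to 2433 CPM. That sum was carried largely by *Chil3* (mean 2500 against 985 CPM, not called). In *K-Setd2KO* tumor 1 *Chil3* was at 2226 CPM, inside the control range of 1170 to 4596 CPM. All 8 pan-leukocyte markers were below 0, 6 of them called, with sums of 1140 to 2056 CPM against 586 to 803 CPM. The 4 erythroid markers tested, a source of heme, were also below 0 but none was called. The lower macrophage sum was carried largely by *Mrc1*, and the markers did not all separate the genotypes. In *K-Setd2KO* tumor 1 the complement genes *C1qa*, *C1qb* and *C1qc* were at 39.5, 27.6 and 25.0 CPM, each above the highest control (38.6, 20.3 and 24.8 CPM). Of 5 neutrophil markers tested, 4 had log2 fold changes above 0 and none was called, with a median of 0.54 and sums of 15.9 to 20.4 CPM in controls against 13.8 to 56.0 CPM. The highest of these differences was that of *Cxcr2*, at 23.5, 0.84, 9.51 and 41.9 CPM in *K-Setd2KO* tumors against 3.42 to 6.07 CPM in controls (log2 fold change 2.10). The 6 epithelial tumor markers had a median log2 fold change of 0.39, with *Epcam* and *Krt18* called higher and *Krt19* at -0.56 (not called). The 9 alveolar type 2 markers had a median of 0.00, with *Sftpb*, which lies on chromosome 6, called higher (1.09) and *Napsa* called lower (-1.60). No listed marker was at 0 in all tumors, although the neutrophil marker *Ly6g* never exceeded 1 count. The part of cell composition in the *Hmox1* difference was not tested.

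*Nqo1* (chr8:107388225-107403206), the quinone reductase most often used as a readout of NRF2 activity, had low counts. They were near or under the limit of 3 counts in *K-Setd2KO* tumors 2 and 4 (5 and 1) and between 12 and 71 in the other tumors. It was measured at 1.54, 5.97, 2.68 and 1.07 CPM in *K-Ctrl* tumors and at 1.03, 0.38, 2.03 and 0.17 CPM in *K-Setd2KO* tumors. The deepest *Nqo1* count was 71 reads, in *K-Ctrl* tumor 2, and *K-Setd2KO* tumor 4 had 1 read. The groups overlapped, and the log2 fold change of -1.58 ± 0.74 had an adjusted p of 0.190. It became -0.93 without *K-Ctrl* tumor 2 and -2.25 without *K-Setd2KO* tumor 3. Within sexes the difference of mean log2(CPM + 1) was -2.23 for female and 0.18 for male tumors. At such low levels the added 1 shrinks these differences, so they cannot be set beside the edgeR value.

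Glutathione synthesis depends on the glutamate-cysteine ligase, built of a catalytic subunit (*Gclc*) and a modifier subunit (*Gclm*). Neither subunit passed the test. *Gclc* (chr9:77754535-77794485) was measured at 347, 648, 163 and 748 CPM in *K-Ctrl* tumors and at 1389.8, 862, 732 and 489 CPM in *K-Setd2KO* tumors. Its level varied 4.58-fold within *K-Ctrl* and 2.84-fold within *K-Setd2KO*, so that a mean difference of 0.87 ± 0.47 on the log2 scale did not pass (adjusted p = 0.257). The 95% interval, -0.21 to 1.94, was wide.

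*Gclm* (chr3:122245557-122270732) was measured at 46.7, 54.0, 47.0 and 41.8 CPM in *K-Ctrl* tumors and at 35.5, 34.0, 53.5 and 31.5 CPM in *K-Setd2KO* tumors. Of the *K-Setd2KO* tumors, 3 of 4 lay below all controls while *K-Setd2KO* tumor 3 was near the top of the control range. The log2 fold change was -0.29 ± 0.18 (adjusted p = 0.315). It became -0.49 without *K-Setd2KO* tumor 3 and -0.21 without *K-Setd2KO* tumor 4, and was called in neither case. A pseudogene on the same strand and a transcript on the opposite strand overlap *Gclm*.

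*Slc7a11* (chr3:49892526-50443614), the cystine importer that feeds glutathione synthesis, was measured at 7.51, 16.7, 17.0 and 14.9 CPM in *K-Ctrl* tumors and at 22.1, 4.67, 12.4 and 23.1 CPM in *K-Setd2KO* tumors. The *K-Setd2KO* tumors lay on both sides of the controls, a 4.95-fold range. The log2 fold change was 0.14 ± 0.47 (adjusted p = 0.866), and its sign turned in 5 of 16 alternatives. The span annotated for *Slc7a11* overlaps 2 genes on its strand and 3 on the other.

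*Gpx2* (chr12:76792335-76795554), an epithelial glutathione peroxidase that reduces hydroperoxides, was measured at 4.00, 15.4, 4.34 and 3.12 CPM in *K-Ctrl* tumors and at 6.32, 0.76, 4.89 and 6.16 CPM in *K-Setd2KO* tumors. *K-Ctrl* tumor 2 stood far above its group and *K-Setd2KO* tumor 2 below its own. The log2 fold change of -0.57 ± 0.69 (adjusted p = 0.621) became 0.23 without *K-Ctrl* tumor 2, so its direction rests on that tumor.

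In the thioredoxin system, *Txnrd1* (chr10:82859206-82897724), which recharges thioredoxin from NADPH, was measured at 123, 166, 174 and 164 CPM in *K-Ctrl* tumors and at 207, 160, 218 and 173 CPM in *K-Setd2KO* tumors. The ranges overlapped, and the log2 fold change was 0.28 ± 0.15 (adjusted p = 0.257). *Srxn1* (chr2:152105516-152111376), which restores over-oxidized peroxiredoxins, was measured at 20.01, 47.7, 25.2 and 25.8 CPM in *K-Ctrl* tumors and at 25.1, 17.1, 33.5 and 12.5 CPM in *K-Setd2KO* tumors. Its log2 fold change was -0.42 ± 0.35 (adjusted p = 0.460), and within sexes the difference was -1.39 for female and 0.49 for male tumors. The *Srxn1* fold change became -0.10 without *K-Ctrl* tumor 2 and -0.68 without *K-Setd2KO* tumor 3. The genotypes were not distinguishable for either gene at this spread. On the reference, *Eid3* overlaps *Txnrd1* on the same strand, and *Fntb* overlaps *Gpx2* on the other.

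**Figure D2:**
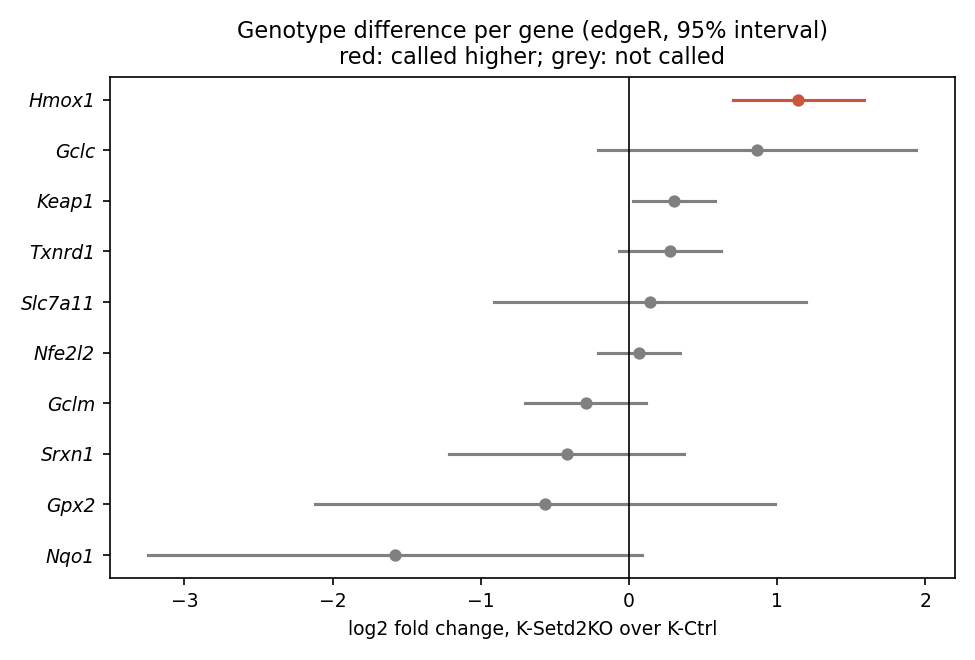
Log2 fold change of *K-Setd2KO* over *K-Ctrl* for the 10 genes, in order of size, with 95% intervals from edgeR (n = 4 tumors per group). The interval of *Hmox1* (0.70 to 1.59, red) is far from 0, while *Nqo1*, *Gpx2*, *Gclc* and *Slc7a11* have wide intervals that include 0.

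The tumors did not order the same way from gene to gene. *K-Ctrl* tumor 2 was the highest control for *Nqo1*, *Gclm*, *Srxn1* and *Gpx2*, and *K-Ctrl* tumor 1 was the lowest control for 5 genes. Among *K-Setd2KO* tumors, tumor 3 was highest for *Nqo1*, *Gclm*, *Txnrd1* and *Srxn1*, whereas tumor 4, which was highest for *Hmox1*, was lowest for *Nqo1*, *Gclc*, *Gclm* and *Srxn1*. Tumor 2 of that group was lowest for 5 genes, *Hmox1* included. The single *Nqo1* read of *K-Setd2KO* tumor 4 lies under the limit of 3 counts, so the rank of that tumor for *Nqo1* is uncertain. Sex was unevenly split between the genotypes, and the only female control was *K-Ctrl* tumor 2, the highest control for *Nqo1*, *Gclm*, *Srxn1* and *Gpx2*, so that the female differences of these genes rest on that tumor. Every male difference rests on 1 *K-Setd2KO* tumor, tumor 3. For *Gclm* the log2 difference was -0.67 among female and 0.24 among male tumors. For *Gpx2* it was -1.86 and 0.30, and for *Nfe2l2* 0.17 and -0.12. *Keap1* had nearly the same difference in both sexes, 0.33 and 0.34.

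Per kilobase of annotated exon, *Gclc* was the most abundant of these transcripts in *K-Ctrl* tumors at 139 ± 78.8 CPM per kb, followed by *Nfe2l2* at 88.3 ± 8.19, *Txnrd1* at 45.8 ± 6.74 and *Hmox1* at 22.5 ± 4.20 (SD, n = 4). *Gclc* and *Nfe2l2* overlapped in their ranges, while *Nfe2l2* and *Txnrd1*, and *Txnrd1* and *Hmox1*, did not. From *Hmox1* downward every neighbor in the order overlapped with the next, ending with *Nqo1* at 1.81 ± 1.42 and *Slc7a11* at 1.01 ± 0.32 CPM per kb. In *K-Setd2KO* tumors *Hmox1* kept its place as the fourth, but at 49.7 ± 11.5 CPM per kb its range met that of *Txnrd1* (55.5 ± 8.05), and *Nqo1* was last at 0.58 ± 0.54.

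The wider pathway was read from 8 lists of genes grouped by role, 107 genes in all, of which 101 were tested. Of these, 12 were called higher and 8 lower in *K-Setd2KO* tumors, beside background shares of 4.97% and 7.74%, and the median log2 fold change was 0.12. The values of the genotypes did not overlap for 23 of the 101, beside 20.3% of all tested genes. The same shares are the background for each list below. Of the 12 higher calls, 7 were in the glutathione transferase list and 3 in the detoxification and export list, which also held 4 of the 8 lower calls. These calls were made in the same tumors in which 2 of 6 epithelial tumor markers were called higher and 6 of 8 pan-leukocyte, 4 of 10 macrophage and 2 of 7 endothelial markers were called lower, and the part of cell composition in the calls of every list, the transferases, *Cbr1*, *Tkt* and *Taldo1* included, was not tested. The 20 calls became 3 without *K-Ctrl* tumor 3 and 4 without *K-Ctrl* tumor 1, and 30 by DESeq2. The 8 lower calls became 0 without *K-Ctrl* tumor 3 and 1 with a sex term.

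Regulators of NRF2 gave no call. None of 15 tested genes, which include the ligase subunit *Cul3*, the small MAF genes and the repressor *Bach1*, was called by edgeR, and none had an unadjusted p under 0.05. The smallest p was that of *Syvn1*, an endoplasmic reticulum ubiquitin ligase that also acts on NRF2, with a log2 fold change of 0.33 ± 0.18 and an adjusted p of 0.252. DESeq2 and limma voom called none of the 15 either.

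Glutathione transferases, which couple glutathione to electrophiles, were called in a single direction. Of 21 listed, 17 were tested, 7 were called higher and none lower, with a median log2 fold change of 0.67, which became 0.34 with no filter on low counts. *Gsta4*, which acts on the lipid peroxidation product 4-hydroxynonenal, was measured at 65.0, 93.8, 84.1 and 84.6 CPM in *K-Ctrl* tumors and at 272, 139, 238 and 302 CPM in *K-Setd2KO* tumors. All *K-Setd2KO* tumors were above all controls, by 2.90-fold on average (log2 fold change 1.54 ± 0.23, adjusted p = 0.0077). *Gstz1*, an enzyme of tyrosine breakdown, rose from 52.4 ± 6.29 to 83.2 ± 8.01 CPM (SD, n = 4; log2 fold change 0.67 ± 0.13, adjusted p = 0.0135). Both were called in all 16 alternatives, while the number of transferases called ran from 2 to 8 when single tumors were left out.

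The other 5 were *Gstt3* (log2 fold change 0.88, adjusted p = 0.0263), *Gstm4* (1.00, 0.0347), *Gstt1* (0.76, 0.0361), *Gstk1* (1.02, 0.0250) and *Mgst1* (0.94, 0.0401), each called in 6 to 11 of the 16 alternatives. Transferases of the same class are close in sequence, and reads may be divided among them. *Gstk1* and *Mgst1* lie on chromosome 6. Its 839 tested genes had median log2(CPM + 1) levels 0.29, 0.31 and 0.33 above the control mean in *K-Setd2KO* tumors 1, 3 and 4 and -0.05 in tumor 2. On the other chromosomes the same medians were -0.015, 0.001 and -0.015 in tumors 1, 3 and 4 and -0.010 in tumor 2. *Mgst1*, a microsomal enzyme, was measured at 669, 888 and 540 CPM in tumors 1, 3 and 4. In tumor 2 it was at 351 CPM, inside the control range of 302 to 354 CPM. *Gstk1* in tumor 2 was at 47.7 CPM, above the highest control of 38.2 CPM. The part of the chromosome in these differences was not tested.

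The windows searched for the ARE core held it in 19 of 93 other pathway genes with an entry (20.4%). Of the 20 called pathway genes 16 had a window, and among these only *Mgst1* and *Blvra* had the core. They were called in opposite directions. Both stretches carry the core on the strand opposite to the gene.
Mgst1, chr6:138140451-138140499, plus strand: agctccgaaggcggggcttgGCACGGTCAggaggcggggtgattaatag
Blvra, chr2:127070588-127070636, plus strand: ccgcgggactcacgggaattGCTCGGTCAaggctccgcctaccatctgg

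**Figure D3:**
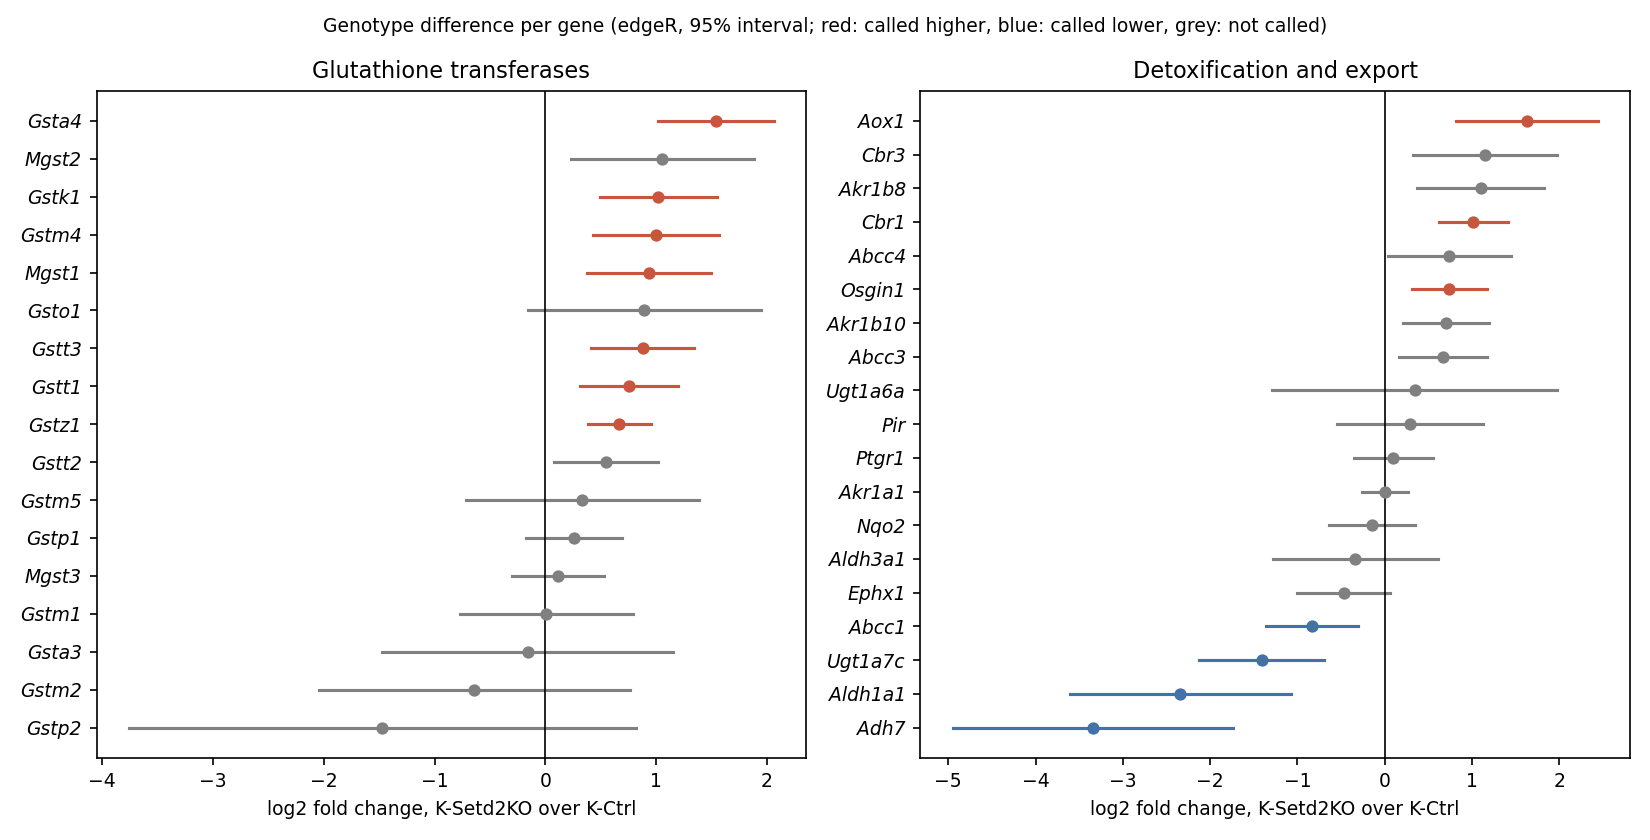
Log2 fold change of *K-Setd2KO* over *K-Ctrl* with 95% intervals from edgeR for 17 glutathione transferases (left) and 19 detoxification and export genes (right). On the left 7 genes are called higher (red) and none lower, and on the right 3 are called higher and 4 lower (blue).

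Detoxification and export genes went both ways. Of 19 tested, 3 were called higher and 4 lower, beside 4.97% and 7.74% of all tested genes. *Cbr1*, a carbonyl reductase that uses NADPH, was measured at 29.1, 27.4, 29.0 and 31.5 CPM in *K-Ctrl* tumors and at 62.6, 40.2, 71.6 and 61.6 CPM in *K-Setd2KO* tumors. The controls were tightly grouped and the *K-Setd2KO* tumors all higher (log2 fold change 1.01 ± 0.18, adjusted p = 0.0106, called in all 16 alternatives). *Aox1*, an aldehyde oxidase, rose by 3.09-fold (adjusted p = 0.0222, called in 14 of 16), and *Osgin1*, an oxidative stress-induced growth inhibitor, by 1.67-fold (adjusted p = 0.0360, called in 8 of 16).

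Among the lower genes, *Aldh1a1*, a retinaldehyde dehydrogenase that was also in the club cell marker list, had a log2 fold change of -2.34 ± 0.56 (adjusted p = 0.0292, called in 10 of 16 alternatives). The 5 club cell markers had a summed level of 648 to 3354 CPM in controls and 300 to 1080 CPM in *K-Setd2KO* tumors. That sum includes *Aldh1a1*, the only one of the 5 called, and is carried by *Scgb1a1* (mean 1697 against 255 CPM, not called), while *Muc5b* and *Cyp2f2* had log2 fold changes above 0 (3.72 and 0.35, not called). The part of club cells in the *Aldh1a1* difference was not tested. *Abcc1*, an exporter of glutathione conjugates, fell by 0.83 on the log2 scale (adjusted p = 0.0479, called in 8 of 16). *Ugt1a7c* fell by 1.41 (adjusted p = 0.0229, called in 11 of 16) but shares exons with other *Ugt1a* genes. *Adh7*, an alcohol dehydrogenase, was called lower (adjusted p = 0.0192) on 32, 14, 33 and 10 counts in *K-Ctrl* and 5, 2, 0 and 0 counts in *K-Setd2KO* tumors, which is too few for a fold.

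Other glutathione enzymes gave few calls. Of 15 tested, only *Gsr*, glutathione reductase, was called, at 110 ± 21.9 CPM in controls and 174 ± 26.7 CPM in *K-Setd2KO* tumors (SD, n = 4; log2 fold change 0.66 ± 0.17, adjusted p = 0.0361). The groups overlapped, because *K-Setd2KO* tumor 2 at 134 CPM was below *K-Ctrl* tumor 2 at 141 CPM, and the call held in 7 of 16 alternatives. In the thioredoxin and peroxiredoxin list, 1 of 14 genes was called, *Sesn1*, a sestrin and p53 target, which fell by 0.67 (adjusted p = 0.0314, called in 7 of 16 alternatives). None of 4 superoxide dismutase and catalase genes was called by edgeR, although 3 had an unadjusted p under 0.05, and *Sod3*, the extracellular dismutase, had the smallest (log2 fold change -1.33 ± 0.48, adjusted p = 0.101). DESeq2 called *Sod3* lower and *Cat* and *Sod1* higher. *Sod3* was called in 2 of 16 alternatives, DESeq2 being 1 of them.

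In the list of 8 genes grouped under NADPH supply, the 2 called were the non-oxidative pentose phosphate enzymes *Tkt* (transketolase) and *Taldo1* (transaldolase), both lower. No other gene of the list was called by edgeR. *Tkt* fell from 149 ± 10.7 to 107 ± 12.1 CPM (SD, n = 4; adjusted p = 0.0291) and *Taldo1* from 110 ± 14.1 to 76.9 ± 9.81 CPM (adjusted p = 0.0421). For both, every *K-Setd2KO* tumor was below every control, and each call held in 8 of 16 alternatives. The list's median was 0.28, opposite in sign to its calls.

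Heme and iron genes next to *Hmox1* moved in different directions. *Blvra*, which reduces the biliverdin that heme oxygenase makes, was measured at 36.4, 35.3, 42.3 and 20.9 CPM in *K-Ctrl* tumors and at 17.6, 17.98, 20.1 and 14.0 CPM in *K-Setd2KO* tumors (log2 fold change -0.95 ± 0.22, adjusted p = 0.0263). *Slc40a1*, the iron exporter ferroportin, was measured at 6.16, 19.8, 12.7 and 11.1 CPM in *K-Ctrl* tumors and at 36.3, 22.9, 28.7 and 64.4 CPM in *K-Setd2KO* tumors (log2 fold change 1.61 ± 0.41, adjusted p = 0.0352). Neither overlapped between the genotypes, the call held in 9 of 16 alternatives for *Blvra* and 7 of 16 for *Slc40a1*, and tumor 4 of *K-Setd2KO* was highest for both *Slc40a1* and *Hmox1*. The other 7 of 9 tested genes, the ferritin genes *Fth1* and *Ftl1* among them, were not called. *Slc40a1* and *Blvra* are also expressed by macrophages, whose summed markers were lower in *K-Setd2KO* tumors. The part of these cells in both differences was not tested.

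**Figure D4:**
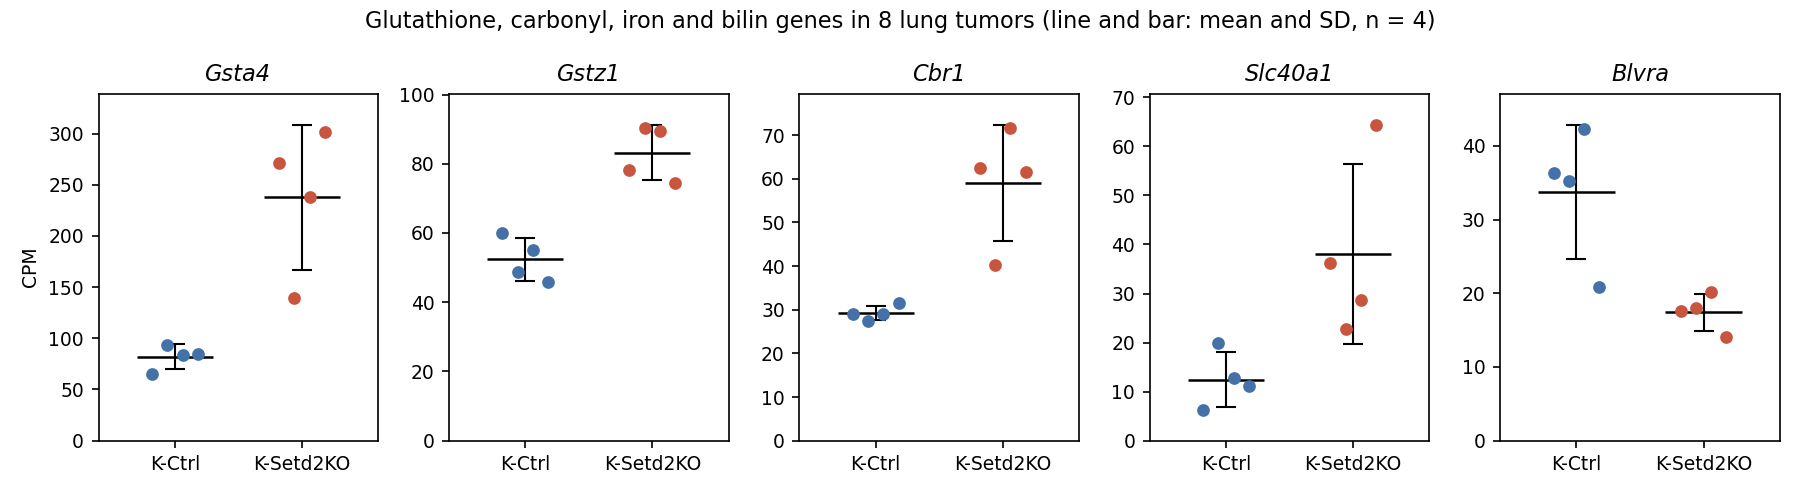
CPM on a linear axis from 0 for 5 called pathway genes, with 1 point per tumor (blue, *K-Ctrl*, red, *K-Setd2KO*) and the mean and SD as line and bar. *Gsta4*, *Gstz1*, *Cbr1* and *Slc40a1* are higher and *Blvra* lower in all 4 *K-Setd2KO* tumors than in any *K-Ctrl* tumor.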

How the data were processed

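Whole lung tumor mRNA was sequenced from TruSeq Stranded mRNA libraries, and the authors deposited 1 table of raw counts per gene, 1 column per tumor, without normalization. The submitters' processing notes name STAR 2.5.2b, featureCounts 1.5.0-p1 and GRCm38.p4, while the annotation release and strand setting are not given in the sources used here. The study compared genotypes with DESeq2. An allele that all the mice carried is not reported here. Tumors were grouped by the genotype label, identifiers were matched to GENCODE M21 (99.26% of 48709), and coordinates are those of the count table.

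Genotypes were compared in R 4.3.3 with edgeR 4.0.16 (filterByExpr, TMM, robust quasi-likelihood fit, genotype alone, two-sided), with Benjamini-Hochberg adjustment over 14929 genes and a call threshold of 0.05. The SE is the log2 fold change over the square root of F. The fitting code was tested on simulated data. Alternatives were DESeq2 1.42.0, limma voom 3.58.1, upper-quartile factors, library totals, no filter, at least 10 counts in every tumor, a replicate block, a sex term and leaving out each of 8 tumors.

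The genes, pathway lists and marker lists were chosen with earlier results of these data known. Named genes were the 10 members, *Setd2*, every called gene of each pathway list (at most 6 with full values) and, in a list without calls, the gene with the smallest p. All further genes in the text were picked with their values in view.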

Additional observations from a re-analysis of the deposited data

Results flagged for a closer look

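In 66 groups of 4 tumors checked for a value far from the others (Dixon's test at the 95% level), 3 had one, and chance alone gives about 1 in 20, or 3.3 of 66. *Gpx2* was 15.4 CPM in *K-Ctrl* tumor 2, where the other control tumors lay between 3.12 and 4.34 CPM. *Gsr* was 134 CPM in *K-Setd2KO* tumor 2, where the other tumors of that genotype lay between 186 and 190.2 CPM. *Gstt3* was 89.7 CPM in *K-Setd2KO* tumor 3, where the others lay between 64.0 and 65.1 CPM. The cause of these values was not tested.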

How the results depend on the processing

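In each of the 16 alternatives *Hmox1* was the only called gene of the 10. The count over all tested genes, 1897, became 3194 by DESeq2 and 1237 with a sex term, and ran from 763 to 2058 when single tumors were left out (763 without *K-Ctrl* tumor 3, 938 without *K-Ctrl* 1, 1126 without *K-Ctrl* 2, 1011 without *K-Setd2KO* 3). The 20 pathway calls became 12 with the replicate block, 9 with a sex term and 30 by DESeq2, and ran from 3 to 23 when single tumors were left out (4 without *K-Ctrl* 1, 9 without *K-Ctrl* 2, 8, 5 and 10 without *K-Setd2KO* 1, 3 and 4). The groups share replicate numbers 1 to 4, but deviations of same-numbered tumors correlated at -0.08, -0.06, 0.19 and 0.01, and 1 of 4 pairs correlated best with its own number, so the numbers were not taken as pairs, and the replicate block gave 1341 calls.

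Some directions turned. *Gpx2* became 0.23 without *K-Ctrl* tumor 2. *Slc7a11* became -0.052 by limma voom and -0.051 with a sex term, and -0.07, -0.09 and -0.10 without *K-Ctrl* 1, *K-Setd2KO* 1 and *K-Setd2KO* 4. Over the tumors left out in turn, *Gpx2* ran from -0.80 to 0.23 and *Slc7a11* from -0.10 to 0.44. The median log2 fold change of the 10 genes became -0.01 with a sex term and ran from -0.05 to 0.23 over the tumors left out. The cause of these turns was not tested.

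In the shallowest tumor, with 5806599 counts, *Nqo1* was under the limit of 3 counts. *Nqo1* could not be fitted with at least 10 counts in every tumor.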
